A study of Solanum lycopersicum with 17 samples.

Results

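The 48 probe sets described here are those whose RNA level in fruit of 4 seedless transgenic tomato lines lay above that of wild-type fruit, whether or not the wild-type seeds had been taken out. A probe set is a group of short probes on an Affymetrix tomato array that reads 1 transcript or a few, and its value is a log2 level, so that a difference of 1 is a doubling. The members were chosen from the measured values: each of the 4 line means had to exceed both the mean of the control with seeds and the mean of the control without seeds by at least 0.7 log2. Of 10038 probe sets, 54 met this, which is 0.538% of them. Those of 11 genes were set aside by the rule, and 6 of these met it (TPRP-F1, P18, PCNA, CHI9, ACO5 and ER1), which left the 48. Since all 8 line-minus-control differences were used to choose the members, these differences are given as a description, with no test.

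All plants were tomato, and the arrays fell into 6 groups. The lines were INO-IaaM, DefH9-IaaM and INO-RolB with 3 arrays each and DefH9-RolB with 2. The controls were wild-type fruit with its seeds (3 arrays) and wild-type fruit from which the seeds had been removed by hand (3 arrays). Each array stood for 1 plant and held RNA from a pool of 8 fruits, so the spread given is that between plants. The labels do not say how many transformation events stand behind a line, the fruit stage or the age of the plants, and no line carrying a promoter or a vector alone was among the arrays. All line-minus-control differences share the same 6 control arrays.

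Fruit set without fertilization is called parthenocarpy, and such fruit has no seeds. Auxin made by the fertilized ovule normally starts fruit growth, and a gene that raises auxin or the response to it in the ovule can take its place. The bacterial gene iaaM encodes an enzyme that turns tryptophan into an auxin precursor, and rolB, also bacterial, changes how plant cells respond to auxin. The INO promoter comes from INNER NO OUTER, a gene of the ovule's outer integument in Arabidopsis, and the DefH9 promoter, from a snapdragon gene, is active in placenta and ovules. The arrays measured RNA of fruit as a mixture of tissues, where fewer cells of a type and less RNA per cell cannot be told apart.

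The arrays were alike in overall level, with medians between 8.40 and 8.46 and correlations within a group of 0.986 to 0.995. The seed label was set against 8 seed genes, a list chosen with earlier results of these data known and so no independent check. Their mean level was 10.91 to 11.54 in the 3 arrays of fruit with seeds, 6.68 to 8.47 in those without, and 6.15 to 8.44 in the 11 line arrays. The mean level of 11 ripening genes was 12.00 to 12.19 in fruit with seeds, 12.04 to 12.38 in fruit without and 11.80 to 12.26 in the lines. The mean level of 5 photosynthesis genes was 10.60 to 11.35, 10.33 to 11.54 and 9.99 to 11.11 in the same order. Reporter probe sets for foreign sequences were taken as silent if no line array exceeded a fixed cut-off, which held for 61. Their values over all arrays lay between 2.45 and 5.49, and this interval is called the silent range. No detection call was made, and the upper end is the highest of these values.

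Only 10 of the 48 members could be named through the annotation used here (20.8%, against 9.06% of the probe sets tested), and 5 of these 10 have no symbol other than a LOC number. They lie on 9 chromosomes in the RefSeq assembly SLM_r2.1. Taken by role, they were a protease and a PR-1 protein of the pathogen response (P69B, P4), a defensin-like gene (TGAS118), a lipid transfer protein (LE16), a metallothionein (MT2), an ethylene response factor (LOC606712) and 4 genes whose function the annotation does not give (LOC543986, LOC543715, LOC544158, LOC544081). In 4 of the 10 no line array overlapped a control array, and in 6 some did. Over all members the count without overlap was 30 of 48, against 275 of all probe sets (2.74%), a number that the rule itself raises.

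**Figure D1:**
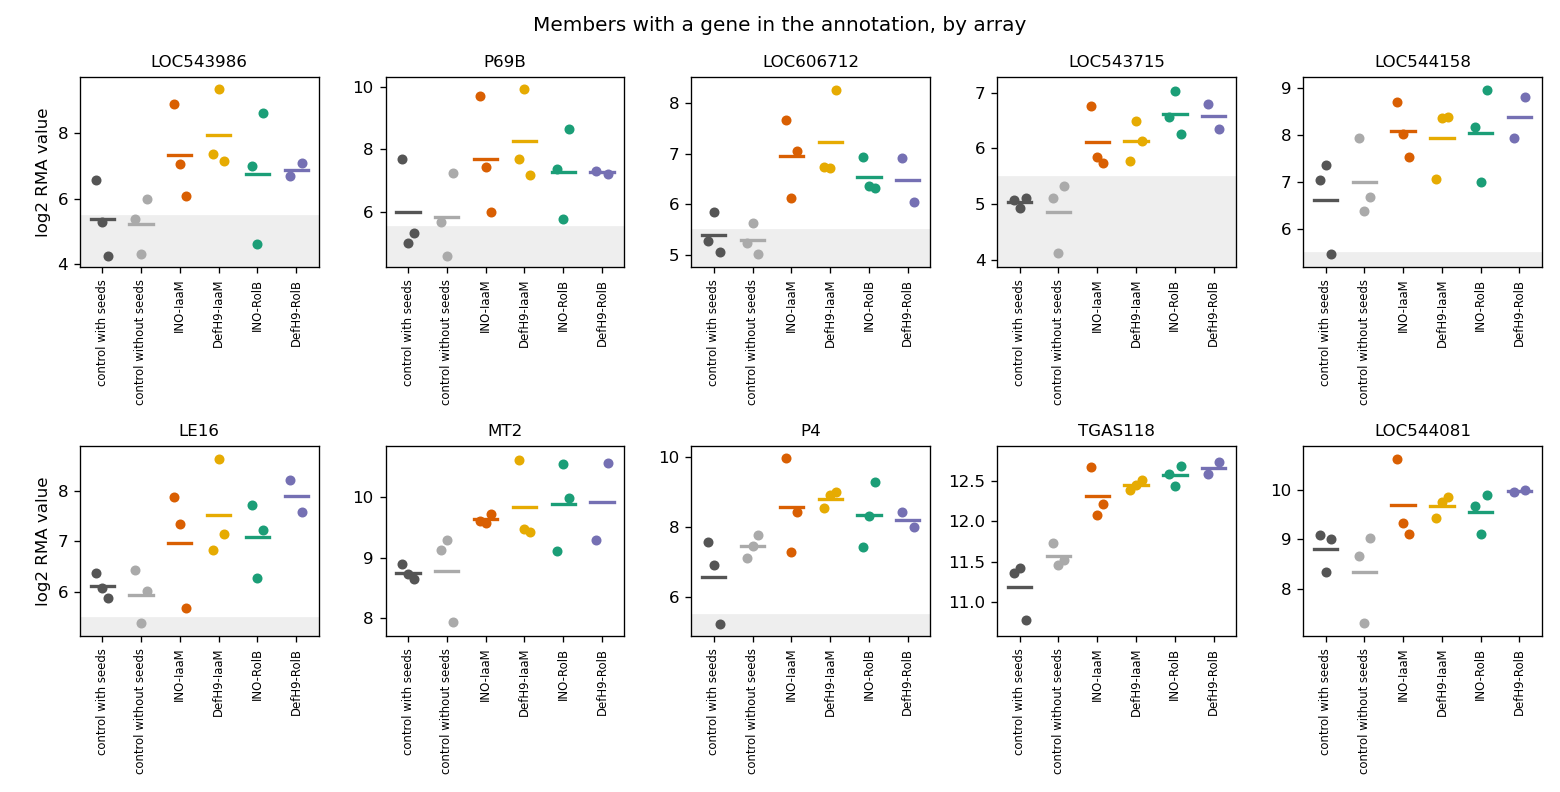
Log2 level (vertical axis) of the 10 members with an annotated gene in each of the 17 arrays; points are arrays, bars are group means, and the gray band is the silent range. TGAS118, LOC606712, LOC543715 and LOC544081 have all 11 line arrays above all 6 control arrays, while P69B has 4 of 11 above.

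TGAS118, which encodes a small defensin-like protein, had the smallest spread within groups among the named genes. Its level in fruit with seeds was 11.36, 11.42 and 10.77, and in fruit without seeds 11.74, 11.46 and 11.52. The INO-IaaM arrays read 12.67, 12.07 and 12.21, the DefH9-IaaM arrays 12.38, 12.45 and 12.51, the INO-RolB arrays 12.59, 12.44 and 12.68, and the DefH9-RolB arrays 12.58 and 12.74. Every line array thus lay above every control array, and the smallest of the 8 differences of means was 0.75, that of INO-IaaM against the control without seeds. The smallest difference was 0.57 without replicate 1 of INO-IaaM. The gene is on chromosome 7 and its control values lay far above the silent range.

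P4, on chromosome 9, belongs to the PR-1 family of pathogenesis-related proteins, secreted proteins that mark salicylic acid responses. It read 7.56, 6.90 and 5.21 in fruit with seeds and 7.11, 7.46 and 7.76 in fruit without. The lines ran from 7.27 in 1 INO-IaaM array to 9.97 in another, with a median of 8.42. Of the 11 line arrays 9 lay above all controls, and the 2 others were replicate 2 of INO-IaaM and replicate 1 of INO-RolB (7.43). The smallest difference was 0.77, and it was 0.41 without replicate 1 of INO-IaaM. The other PR-1 gene matched by symbol, PR1b1, did not share the pattern. By the probe set with signal above the silent range its level was 11.93 with seeds, 12.26 without, and 12.27 to 12.56 in the lines. Here and below, relatives were looked up by symbol, so any among the probe sets without a gene name were not seen.

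P69B encodes a subtilisin-like protease that tomato secretes in the pathogen response, and lies on chromosome 8. It had the widest spread of the named members. Its level was 7.67, 5.00 and 5.31 in fruit with seeds and 5.67, 4.58 and 7.24 in fruit without. The INO-IaaM arrays gave 9.70, 7.42 and 5.99, the DefH9-IaaM arrays 7.68, 9.95 and 7.18, the INO-RolB arrays 7.37, 5.77 and 8.67, and the DefH9-RolB arrays 7.31 and 7.20. Only 4 of 11 line arrays lay above the highest control, so the groups overlap widely although every line mean was at least 1.27 higher than both control means. Without replicate 3 of INO-RolB the smallest difference was 0.58. P69A, a close relative of P69B, was within the silent range in all 6 groups, with means of 3.01 to 3.23.

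LE16, on chromosome 10, encodes a lipid transfer protein, a small secreted protein that carries lipids to surface layers. It read 6.38, 6.07 and 5.87 in fruit with seeds and 6.43, 5.39 and 6.02 in fruit without. Line arrays ran from 5.68 (INO-IaaM, replicate 3) through a median of 7.35 to 8.62 (DefH9-IaaM, replicate 2), and 9 of 11 lay above all controls. The DefH9-RolB mean was highest, 7.90 ± 0.44 (SD, n = 2), and the INO-IaaM mean lowest, 6.97 ± 1.15 (SD, n = 3). Its smallest difference, 0.86, was 0.41 without replicate 1 of INO-IaaM. The other lipid transfer genes matched by symbol were highest in fruit with seeds. TSW12 averaged 11.01 with seeds, 5.96 without, 6.03 in INO-IaaM, 7.74 in DefH9-IaaM, 6.25 in INO-RolB and 7.26 in DefH9-RolB, so that 2 line means lay more than 1 log2 above fruit without seeds. The means of ltpg1 were 11.24 with seeds, 8.39 without and 7.92 to 8.93 in the lines.

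MT2 on chromosome 6 encodes a metallothionein, a small cysteine-rich protein that binds metal ions. Its level was 8.89, 8.73 and 8.64 in fruit with seeds and 9.12, 9.28 and 7.94 in fruit without. Line arrays ran from 9.11 to 10.60 with a median of 9.60, and 10 of 11 lay above all controls, the exception being replicate 1 of INO-RolB. Its 4 line means lay between 9.63 and 9.92. The smallest difference of 0.85 rested in part on replicate 3 of the control without seeds, and was 0.43 without it. The other metallothionein genes matched by symbol were not members, with smallest differences of 0.02 or less for every probe set of MT4, -0.96 for MT3 and -0.60 for MTA.

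LOC606712, on chromosome 5, is an ethylene response factor (synonyms SlERF-C1 and TERF1), a transcription factor of the family that acts at the end of the ethylene pathway. Its control values, from 5.01 to 5.85 with a median of 5.26, lay within the silent range in 4 of 6 arrays, as did both control means, so the controls' level cannot be told from none. The INO-IaaM arrays read 7.67, 6.12 and 7.06, the DefH9-IaaM arrays 6.73, 6.71 and 8.26, the INO-RolB arrays 6.94, 6.37 and 6.33, and the DefH9-RolB arrays 6.92 and 6.04. All 11 lay above all controls, with line means from 6.48 to 7.23. The smallest difference of 1.09 became 0.65 without replicate 1 of DefH9-RolB. None of the other 10 genes of the ethylene response factor family matched by symbol was a member. Their smallest differences ran from -1.23 (PTI6) to 0.36 (1 of the 2 probe sets of ERF3, itself within the silent range).

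Of the 4 genes with no annotated function, LOC543715 (chromosome 11) was the steadiest. It read 5.08, 4.93 and 5.10 in fruit with seeds and 5.11, 4.11 and 5.32 in fruit without, all within the silent range. The line arrays ran from 5.73 to 7.03 with a median of 6.35, all 11 above all controls, and the RolB line means (6.62 and 6.57) were higher than the IaaM line means (6.11 and 6.13). It was the only named member that met the rule with any 1 of the 17 arrays left out. LOC544081 (chromosome 4) read 9.09, 8.33 and 9.01 with seeds and 8.67, 7.31 and 9.02 without. Its line arrays ran from 9.10 to 10.61, all above the controls, although the lowest of them, in INO-IaaM and INO-RolB, exceeded the highest control array by less than 0.1 log2. Its smallest difference was 0.74, and 0.40 without replicate 1 of INO-IaaM.

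LOC543986 (chromosome 1) had the largest smallest difference of the named members, 1.37, and also a wide spread. It read 6.58, 5.30 and 4.27 in fruit with seeds and 5.39, 4.33 and 6.00 in fruit without. The lines ran from 4.61 (INO-RolB, replicate 2) to 9.36 (DefH9-IaaM, replicate 2) with a median of 7.08, and 9 of 11 arrays lay above all controls. Its SD within INO-RolB was 2.02 (n = 3), and without replicate 3 of that line the smallest difference was 0.43. LOC544158 (chromosome 4) read 7.04, 7.37 and 5.47 with seeds, 7.95, 6.38 and 6.70 without, and 7.01 to 8.96 in the lines, with 7 of 11 arrays above all controls. Its smallest difference was 0.94, and 0.58 without replicate 3 of INO-RolB.

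The members with the largest smallest differences have no gene name in the annotation used here, and neither do 38 of the 48. At the top stood Les.3700.1.S1_at, whose control arrays read 4.81, 5.76 and 4.62 with seeds and 4.85, 5.64 and 3.85 without, with both means in the silent range. Its lines read 7.96, 7.70 and 6.83 in INO-IaaM, 8.31, 7.60 and 7.89 in DefH9-IaaM, 9.65, 7.47 and 7.52 in INO-RolB, and 8.42 and 6.43 in DefH9-RolB. No array overlapped, the smallest difference was 2.36, and it was 1.37 when replicate 1 of DefH9-RolB was left out, which leaves that line with its lower array alone.

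Les.3266.2.S1_at was higher in the lines by nearly as much and with far less spread. Control arrays ran from 6.01 to 7.17 with a median of 6.80, and line arrays from 8.92 to 9.77 with a median of 9.22, so that a gap of more than 1 log2 separated them. Its smallest difference was 2.23. Les.3266.3.S1_at, from the same transcript cluster, gave the same picture: 8.42 to 9.62 in the controls, 10.85 to 11.55 in the lines, and a smallest difference of 1.85. Both may read 1 transcript, since their deviations from the group means correlated at 0.95 over the 17 arrays.

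LesAffx.24167.1.S1_at averaged 6.17 ± 0.07 (SD, n = 3) with seeds and 6.61 ± 0.68 without, against 9.06 ± 0.10, 8.10 ± 0.43 and 9.01 ± 0.21 (n = 3 each) in INO-IaaM, DefH9-IaaM and INO-RolB and 8.75 ± 0.23 (n = 2) in DefH9-RolB. Its line arrays did not overlap the controls, and DefH9-IaaM stood lowest. Les.417.1.S1_at averaged 8.90 ± 0.31 with seeds, 8.84 ± 1.32 without, and 10.23 to 11.47 in the lines, with 8 of 11 line arrays above all controls. Les.2696.1.S1_at averaged 4.24 ± 0.78 and 4.95 ± 0.68 in the controls, within the silent range, and 6.26 to 7.19 in the lines, with 10 of 11 above. These 6 had smallest differences of 1.31 or more.

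Over the 48 members the smallest difference had a median of 0.92, against -0.16 over all 10038 probe sets, as the rule sets. It was at least 1 in 17 members and at least 2 in 2. The mean of the 4 lines stood above the higher control by 0.86 to 2.70, with a median of 1.14. The higher control was that without seeds in 28 members and that with seeds in 20. No line led throughout: DefH9-RolB was the highest line in 18 members, DefH9-IaaM in 13, INO-IaaM in 9 and INO-RolB in 8, while the lowest was DefH9-RolB in 16, INO-IaaM in 14, DefH9-IaaM in 10 and INO-RolB in 8. DefH9-RolB, with 2 arrays, was thus most often at either end. Averaged over the members, the level was 6.97 ± 0.20 (SD, n = 3) with seeds, 7.05 ± 0.17 without, 8.41 ± 0.30 in INO-IaaM, 8.47 ± 0.15 in DefH9-IaaM, 8.48 ± 0.13 in INO-RolB and 8.51 ± 0.04 (n = 2) in DefH9-RolB.

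The members' pooled SD within groups had a median of 0.44, against 0.17 over all probe sets. A fixed threshold on means of few arrays is met more readily by probe sets with a large spread. This comparison is therefore not independent of how the members were chosen, and nothing is read from it. The pooled SD of the members ran from 0.16 to 1.46. At 1 end, and chosen after their values were seen, were members such as Les.178.1.S1_at, with 10.40 ± 0.11 and 10.48 ± 0.25 in the controls with and without seeds and 11.24 to 11.40 in the lines, and Les.5740.1.S1_at, with 6.02 and 5.99 in the controls and 7.05 to 7.48 in the lines. At the other end was Les.435.1.S1_at, with 8.48 ± 1.45 and 7.63 ± 0.64 in the controls, 9.22 to 10.20 in the lines, and 4 of 11 line arrays above all controls. In 35 members at least 10 of the 11 line arrays lay above all controls. With each array left out in turn, 12 of the 48 met the rule in all 17 settings.

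The values gave no natural boundary at the threshold. Just inside were LesAffx.71117.1.S1_at at 0.73 and Les.1230.1.A1_at and Les.5055.1.S1_at at 0.70. Just outside were Les.4442.1.S1_s_at, which also rounds to 0.70, and ODD and LesAffx.62009.1.S1_at at 0.69. In 11 members both control means lay in the silent range, in 3 others 1 of them did, and in 34 neither did, so for most members the controls gave a measured signal. The mean level of the members had a median percentile of 43.3 among all probe sets.

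Some transcript clusters were read by more than 1 probe set. There were 6 such clusters, with 7 members and 8 probe sets that are not members. All 8 of the latter had a smallest difference above 0, from 0.03 (Les.1054.3.A1_at) to 0.68 (Les.1847.2.S1_at), so that each line mean lay above both control means but not by the threshold. Les.1847.2.S1_at followed the member Les.1847.3.S1_at closely, with a correlation of deviations from the group means of 0.98. LesAffx.24167.1.A1_at did not follow LesAffx.24167.1.S1_at, with a correlation of 0.07, and its control level of at most 4.65 was within the silent range.

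Within groups, several members varied together from plant to plant. The rule read the group means, which are subtracted here, but the same arrays set those means. Without replicate 3 of INO-RolB, for example, neither P69B nor LOC543986 met the rule. This variation is therefore not independent of how the members were chosen. The deviations of P69B correlated with those of LOC543986 at 0.93 and with those of Les.435.1.S1_at at 0.92 over the 17 arrays, the 6 group means being removed from both. P69B correlated with LE16 and with LOC544081 at 0.77 each, and 7 of the other 47 members had a value above 0.7. The arrays high for both P69B and LOC543986 were spread over 5 groups, wild type included: replicate 1 of INO-IaaM, replicate 2 of DefH9-IaaM, replicate 3 of INO-RolB, replicate 1 of the control with seeds and replicate 3 of the control without seeds. The lowest were replicate 3 of INO-IaaM and replicate 2 of INO-RolB.

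**Figure D2:**
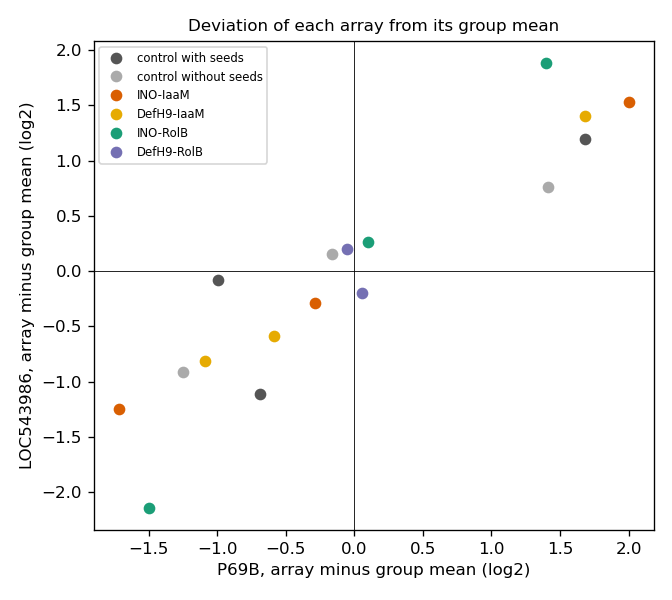
Deviation of each of the 17 arrays from its group mean (log2) for P69B (horizontal axis) and LOC543986 (vertical axis), coloured by group. The points lie along a rising diagonal (r of 0.93), with 1 array each of 5 groups at its upper end.

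The shared variation did not cover all members. The ethylene response factor LOC606712 had a correlation of -0.14 with P69B, and 26 members had a value below 0. Some of these varied strongly against P69B. The lowest were LesAffx.58502.1.S1_at at -0.77, Les.1054.1.S1_at at -0.76 and LesAffx.71117.1.S1_at at -0.74. LOC544158 and TGAS118 correlated at 0.81. Over the 1128 pairs of members the median was 0.08, and 16.7% of pairs were above 0.5. The same shares were not computed over all probe sets. Whether members vary together more than other probe sets do was therefore not tested.

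The rule took no difference between the controls or between the lines, although it drew on the same group means. These differences were fitted with limma over all 10038 probe sets, with Benjamini-Hochberg adjustment and a threshold of 0.05. Between the controls without and with seeds, 441 of all probe sets were called (4.39%), 103 higher (1.03%) and 338 lower (3.37%) without seeds, and 0 of the 48 members. Probe sets with a high level in fruit with seeds could hardly meet the rule in seedless lines, so the members' count is not independent of how they were chosen and nothing is read from it. At an unadjusted p under 0.05 there were 3 members, against 1579 of all probe sets (15.7%). The median difference, without minus with seeds, was 0.08 for the members and 0.03 for all, and 28 members were positive and 20 negative. The members' standard errors were larger, with a median of 0.33 against 0.14, which is likewise not independent of how they were chosen.

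The 3 members were all higher without seeds: Les.1230.1.A1_at by 0.66 ± 0.19 (SE, adjusted p = 0.0786), TGAS118 by 0.39 ± 0.17 (adjusted p = 0.294) and LesAffx.53517.1.S1_at by 1.63 ± 0.74 (adjusted p = 0.303), all in limma. Les.1230.1.A1_at averaged 7.16 ± 0.18 (SD, n = 3) with seeds and 7.82 ± 0.19 (n = 3) without. With the replicate number as a block over the arrays of all groups, this member was called (0.66, adjusted p = 0.0479 in limma). The labels do not say that equal numbers pair arrays, so this fit is not a paired test of the controls. Les.1230.1.A1_at was also called without replicate 1 of DefH9-IaaM (adjusted p = 0.0305), which changes only the shared spread. For the other named genes the 95% interval of the difference was wide: -0.53 to 2.30 for P4, -2.48 to 2.15 for P69B and -0.92 to 0.97 for MT2, so changes of more than 1 log2 between the controls are within the error of the first 2.

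Between the transgenes, 1 member was called. The difference was taken as the mean of the 2 IaaM lines minus that of the 2 RolB lines, and over all probe sets 293 were called (2.92%), 98 higher (0.976%) and 195 lower (1.94%) in the IaaM lines. The called member, Les.4938.1.S1_at, was lower in the IaaM lines by 1.16 (difference of -1.16 ± 0.19, SE, adjusted p = 0.00887 in limma, 95% interval -1.57 to -0.75). This is 2.08% of the members. At an unadjusted p under 0.05 there were 7 members, against 1894 of all probe sets (18.9%).

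Les.4938.1.S1_at, which has no gene name here, read 4.15, 4.04 and 3.72 in fruit with seeds and 4.27, 3.82 and 4.04 in fruit without. The INO-IaaM arrays gave 5.06, 5.07 and 4.98 and the DefH9-IaaM arrays 4.45, 5.17 and 5.64. The INO-RolB arrays gave 6.34, 6.21 and 5.80 and the DefH9-RolB arrays 6.04 and 6.63. All 5 RolB arrays lay above all 6 IaaM arrays. Nearly all IaaM values were in the silent range, where a level cannot be told from none. With 1 array left out the difference ran from -1.31 to -1.004. The BioC minus BioB spike signal, a hybridization control described below, separated the same 2 sets of arrays. With it as a covariate the difference was -0.28 (adjusted p = 0.949 in limma). Transgene and spike signal cannot be told apart in these arrays.

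**Figure D3:**
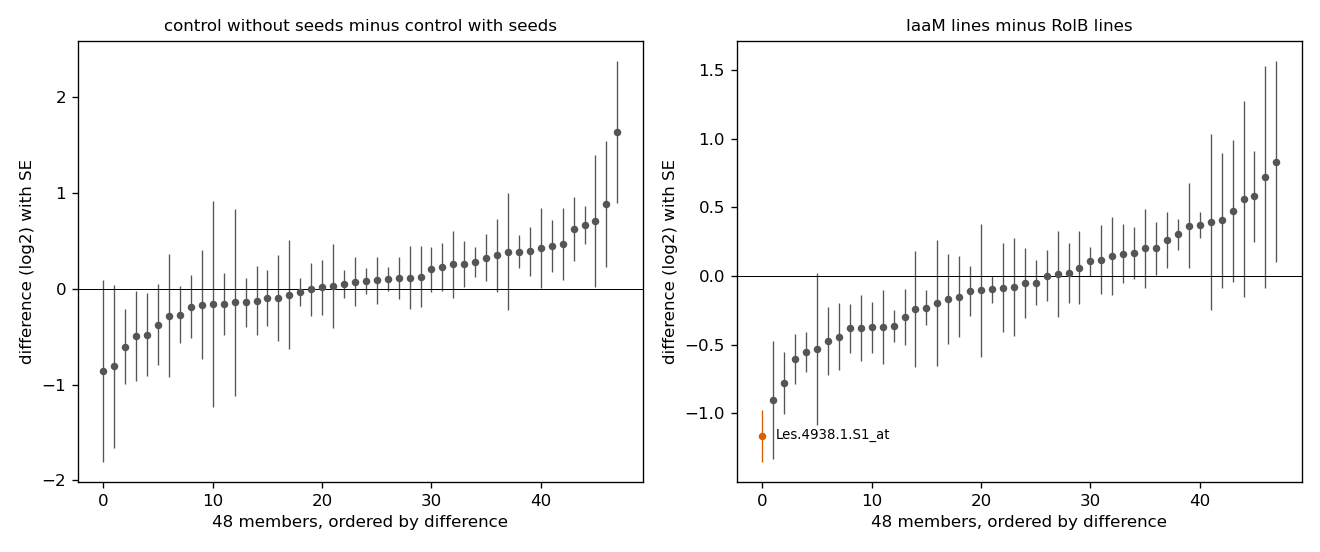
Difference with its standard error (log2, vertical axis) for each of the 48 members, ordered by difference along the horizontal axis, without minus with seeds in the left panel and IaaM minus RolB lines in the right. The members lie on both sides of 0 in each panel, and Les.4938.1.S1_at, the coloured point of the right panel, lies at -1.16.

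Close to the threshold in this comparison were Les.5283.1.S1_at, higher in the IaaM lines by 0.37 ± 0.10 (SE, adjusted p = 0.0552 in limma), and Les.1230.1.A1_at, lower there by 0.55 (difference of -0.55 ± 0.15, adjusted p = 0.0593). Les.5283.1.S1_at averaged 8.92 ± 0.11 and 8.86 ± 0.22 in the IaaM lines (SD, n = 3 each) and 8.52 ± 0.24 (n = 3) and 8.51 ± 0.01 (n = 2) in the RolB lines. With the replicate block Les.1230.1.A1_at was called (adjusted p = 0.035), and 2 members were called in all.

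None of the 10 named genes passed the threshold between the transgenes. LOC543986 differed by 0.83 ± 0.73 (95% interval -0.74 to 2.41), P69B by 0.72 ± 0.81 (-1.01 to 2.46) and LOC606712 by 0.58 ± 0.33 (-0.14 to 1.30), with the IaaM lines higher in each. LOC543715 differed by -0.47 ± 0.25 (-1.01 to 0.06) and TGAS118 by -0.23 ± 0.13 (-0.51 to 0.05), with the RolB lines higher. For TGAS118 the interval leaves out a difference of 1 log2 either way, and for P69B it does not. Over the 48 members 22 differences were positive and 26 negative, with a median of -0.06 against 0.01 over all probe sets.

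Between the promoters, DefH9 minus INO lines, no probe set was called by limma (0%), members included, and at an unadjusted p under 0.05 there were 3 members and 372 of all probe sets (3.71%). The members' differences ran from -0.61 for LesAffx.24167.1.S1_at (SE 0.21) to 0.69 for LE16 (SE 0.42, 95% interval -0.22 to 1.60), with 27 positive and 21 negative. The other 2 below an unadjusted 0.05 were LesAffx.69261.1.S1_at at 0.54 and Les.1230.1.A1_at at 0.35. The interaction of promoter and transgene, which asks whether the promoters differ by more under 1 transgene than under the other, also gave no call in limma (0%). There 1 member, Les.3974.1.A1_at at -1.32 ± 0.50 (SE), and 383 of all probe sets (3.82%) were below an unadjusted 0.05. The members' median standard error for the interaction was 0.50, so only large interactions were detectable with this number of arrays.

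Lists of hormone, growth, fruit and defence genes were matched by symbol. Since 0.538% of all probe sets met the rule's thresholds, lists of this size would hold few members or none, and nothing is read from their counts. Members were 0 of 8 auxin genes, 0 of 6 gibberellin genes, 0 of 33 cell wall genes, 0 of 35 ethylene genes, 0 of 12 cell cycle and histone genes and 0 of 6 MADS-box genes measured. The rule's own list of genes set aside matters to 4 of the lists: ACO5 and ER1 (ethylene), TPRP-F1 (cell wall), P18 and PCNA (cell cycle) and CHI9 and ER1 (defence) met the thresholds but were left out. Of 13 defence genes P4 was a member. The median smallest difference of the defence list was 0.01, against -0.16 over all probe sets. In the other lists measured it ran from -4.50 (seed) to -0.14 (cell cycle and histones). The rule reads this same measure and the lists were chosen with earlier results known, so nothing is read from these medians either. The lists for seed (8 genes), ripening (11), sucrose and starch (14), photosynthesis (5) and organic acids (3) held 0 members. LOC606712 is not in the ethylene list, nor are P69B and TGAS118 in the defence list.

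Signals of the arrays themselves moved with the lines. The control probe sets for actin and gapdh read the 5' and the 3' end of the RNA, and their 5' minus 3' difference falls as RNA is degraded or copied incompletely. This difference averaged -0.46 ± 0.11 (SD, n = 11) in the lines, -0.74 ± 0.15 (n = 3) in fruit with seeds and -0.69 ± 0.19 (n = 3) in fruit without. The lines were higher by 0.285 than fruit with seeds (exact two-sided permutation p = 0.00549, adjusted 0.022 over 8 tests) and by 0.235 than fruit without (exact p = 0.0137, adjusted 0.0366). With this signal as a covariate, 29 of the 48 members met the rule, 6 of the 10 named genes among them, and 47 kept a smallest difference above 0. The exception was LesAffx.40648.1.S1_at at -0.12. P69B had a smallest difference of 3.13 in that fit, LOC543986 of 2.53 and LOC544081 of 1.44. That of TGAS118 was 0.68, that of LOC606712 0.58 and that of MT2 0.26. The part of RNA quality in the members' differences was not tested beyond this fit.

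The BioC minus BioB signal, the difference between 2 bacterial RNAs spiked into each hybridization, averaged 1.09 ± 0.03 (SD, n = 5) in the RolB lines, 0.54 ± 0.05 (n = 6) in the IaaM lines and 0.59 ± 0.09 (n = 6) in the controls. The IaaM lines were lower by 0.555 (difference of -0.555, exact two-sided permutation p = 0.00216, the smallest this number of arrays can give, adjusted 0.0173). This test, too, pooled arrays of different lines. The 6 IaaM arrays and the 6 control arrays lay at similar values, while the RolB arrays stood above the controls. The rule was not refitted with this signal as a covariate, so its part in the RolB lines' differences from the controls was not tested.

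**Figure D4:**
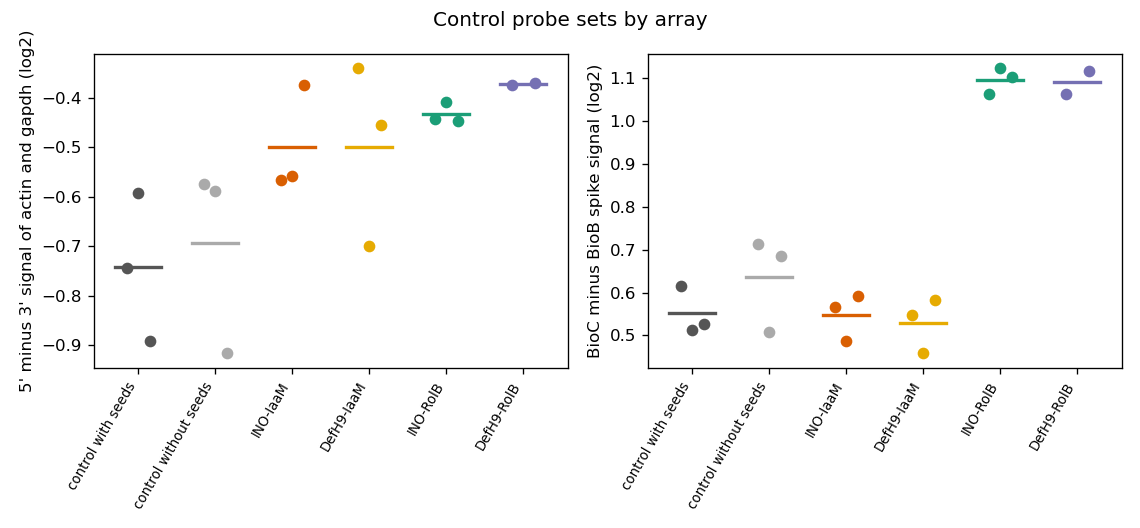
Signals of control probe sets by array (points) with group means (bars), both in log2: the 5' minus 3' difference on the left and BioC minus BioB on the right. On the right the 5 RolB arrays stand at 1.06 to 1.12 and all others at 0.46 to 0.71; on the left the line arrays are mostly higher than the control arrays, with some overlap.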

How the data were processed

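The deposited values are log2 levels, 1 per probe set and array, made by the authors with RMA (background correction, quantile normalization and summary of probes), per the submitters' processing notes; no version is given in the sources used here, and base 2 was taken from the size of the values. Control and reporter probe sets were used only as checks. Of the 10038 probe sets left, 909 had 1 gene in the platform annotation (802 genes), of which 885 were matched by gene number to RefSeq SLM_r2.1. The members, gene lists and gene families were chosen with earlier results of these data known. Scanner files, gene sequences and promoters were not used here, so promoter motifs were not searched.

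For every probe set, limma 3.58.1 (R 4.3.3) estimated the 6 group means from all 17 arrays by lmFit and eBayes, with 11 residual degrees of freedom. Benjamini-Hochberg adjustment ran over all 10038 probe sets of a contrast. Named with values were all members with a gene, the 6 top members without one, the 3 probe sets on each side of the threshold and up to 4 called members per direction. Others were named after their values were seen. Array signals were compared by exact permutation tests. The deviations of same-numbered arrays from their group means correlated at 0.438, 0.479 and 0.165 between the controls. INO-IaaM and DefH9-RolB also had both of their correlations above 0.1 (0.338 and 0.45), and no other pair of groups had all of them above it. The labels do not say that equal numbers pair arrays, and these correlations do not settle it. The number of arrays limits the precision. Alternatives were other thresholds, normalizations, filters, array weights, covariates, a replicate block, a fit of the compared groups alone and leaving out each array. The fit was tested on simulated data. Python 3.11.15 with pandas 2.3.3 and matplotlib 3.10.9 was used for tables and figures.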

Additional observations from a re-analysis of the deposited data

Results flagged for a closer look

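The difference of the member Les.4938.1.S1_at between the transgenes, -1.16 for IaaM minus RolB lines, stood out because the line groups differed in a test of the difference itself. Apart from the fit with the BioC minus BioB signal, its adjusted p in limma ran from 0.0069 to 0.037 over the alternatives that kept it.

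Reporter probe sets, which the comparisons did not use, gave signal in the lines above the level of the controls in 2 cases. RPTR-Les-A00196-1_s_at had a median of 10.34 in the 11 line arrays, from 3.93 to 11.36, and 10 of the 11 lay above the highest control array, at 4.36. The remaining line array, at 3.93, lay within the silent range, and its line is not given here. RPTR-Les-U57609-2_s_at had a median of 9.74, from 7.14 to 11.31, and all 11 lay above the highest control array, at 4.09. No group of 4 to 10 arrays was present, so single arrays were not screened as outliers within groups.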

How the results depend on the processing

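The number of members was 124 with a minimum difference of 0.5, 17 with 1, 30 when all line arrays had to lie above all controls, and 41 to 61 with 1 array left out; it was 46 after quantile normalization, 45 after median centring, 51 with medians, 61 with the 5' minus 3' covariate and 48 with the replicate block, of which 34, 29 and 47 were among the 48. With medians the smallest difference was 0.35 for MT2, 0.32 for LOC544081 and 0.696 for TGAS118. Between the controls, the 441 probe sets called became 245 without the lowest 30% by level, 687 with array weights, 239 with the 2 groups alone, 210 at an adjusted p of 0.01, and 224 to 463 with 1 array left out (286 and 258 without replicates 1 and 2 of the control without seeds, 224 without replicate 3 of the control with seeds); members called were 0 except 1 with the replicate block, and 0 to 1 with 1 array left out. Between the transgenes, the 293 became 496 with array weights, 0 with the BioC minus BioB covariate, 116 with these groups alone, 45 at 0.01, and 79 to 330 with 1 array left out (150 without replicate 2 of INO-IaaM, 181 and 171 without replicates 1 and 3 of DefH9-IaaM, 173 without replicate 2 of INO-RolB and 79 without replicate 1 of DefH9-RolB). Members called there were 2 after median centring (Les.5283.1.S1_at added), with array weights and with the replicate block (Les.1230.1.A1_at added in both), 0 with the BioC minus BioB covariate, and 1 to 2 with 1 array left out; without the lowest 30% by level Les.4938.1.S1_at was not tested and Les.5283.1.S1_at was called instead. Between the promoters 0 to 2 probe sets, and for the interaction 0 to 5, were called with 1 array left out, members never. Of 2122 values of single genes under alternatives, 2118 were counted as kept. For a contrast this means the same side of the adjusted p threshold, and sign was not compared where neither fit called it. For a smallest difference it means the same sign and a move of less than the replicate SD. Such a value can still fall below 0.7, as MT2 did at 0.26 with the 5' minus 3' covariate. Exceptions with that covariate were P69B at 3.13 and LOC544081 at 1.44. The others were Les.3700.1.S1_at at 1.37 without replicate 1 of DefH9-RolB and Les.4938.1.S1_at at -0.28 with the BioC minus BioB covariate. Among these values no smallest difference and no called contrast changed sign. With the replicate block 399 probe sets were called between the controls and 239 between the transgenes, and it changed no other call of a member. Apart from fewer probe sets or arrays entering, the cause was not tested. Levels in the silent range cannot be told from none.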
